A study of Mus musculus with 62 samples.

Results

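The 10 genes described here mark T cells and their state: the CD3 chains of the T cell receptor complex (Cd3d, Cd3e, Cd3g), the coreceptors (Cd4, Cd8a, Cd8b1), the signalling protein gene Themis, the inhibitory receptor gene Pdcd1, the chemokine receptor gene Cxcr6 and the chemokine gene Ccl5. They were chosen by name, as 10 rows of a table of 56884 genes, and all 10 passed the filter on low counts. The RNA came from whole livers of males of C57BL/6J, an inbred laboratory strain that gains weight readily when fed fat. The study asks how protein in the diet after a weight-loss operation bears on the liver. Every mouse other than those labelled chow ate a Western diet (WD) for 12 weeks from 5 weeks of age and was operated on at 17 weeks. The operation was a sham or a sleeve gastrectomy (SG), which took out about 75% of the stomach.

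From postoperative day 7 the mice ate WD (42% of calories from fat, 15.2% from protein) or 1 of 3 diets with 20% of calories from fat. These are named P36, P21 and P7 after the percentage of calories from protein, which was 36, 21 or 7. Chow mice had a sham operation, apart from 1 with SG, and the make-up of chow and any earlier WD of these mice were not stated. The livers were collected at 14 weeks from the operation, following a 16 h fast and 4 h of refeeding. Counts were held for 57 of 62 labelled mice: 8 sham WD, 8 SG WD, 5 sham P36, 4 SG P36, 7 sham P21, 6 SG P21, 7 sham P7, 7 SG P7, 4 sham chow and 1 SG chow. The other 5 were not analysed here. Library numbers are names only.

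A T cell recognises antigen through a receptor of paired alpha and beta or gamma and delta chains, which signals through the CD3 chains. CD4 and CD8 bind the molecules that present antigen, and THEMIS acts downstream of the receptor and is best known from the selection of T cells in the thymus. PD-1, the product of Pdcd1, restrains activated T cells, CXCR6 marks lymphocytes that patrol or reside in the liver, and CCL5 is released by activated T cells and NK cells, and by some myeloid cells, to draw in others.

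Cd3g, Cd3d and Cd3e lie side by side on chromosome 9. RefSeq gave a promoter window of 300 bases, from 250 before to 50 after the start, for 7 of the 10 genes, on the GRCm38.p6 build, whereas the counts were made on GRCm39. The windows of the 3 CD3 genes are printed because these genes neighbour each other and varied together between animals, and that of Themis because it had the largest change with diet. Capitals mark the letters GGAAGT, a core of ETS family sites, on either strand.
Cd3g (- strand, chr9:44980382-44980681): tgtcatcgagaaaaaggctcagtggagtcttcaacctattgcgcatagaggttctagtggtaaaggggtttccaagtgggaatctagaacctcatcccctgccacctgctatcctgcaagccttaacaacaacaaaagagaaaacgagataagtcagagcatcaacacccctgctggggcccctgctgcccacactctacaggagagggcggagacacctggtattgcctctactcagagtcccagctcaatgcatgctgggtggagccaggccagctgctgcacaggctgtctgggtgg
Cd3d (+ strand, chr9:44981536-44981835): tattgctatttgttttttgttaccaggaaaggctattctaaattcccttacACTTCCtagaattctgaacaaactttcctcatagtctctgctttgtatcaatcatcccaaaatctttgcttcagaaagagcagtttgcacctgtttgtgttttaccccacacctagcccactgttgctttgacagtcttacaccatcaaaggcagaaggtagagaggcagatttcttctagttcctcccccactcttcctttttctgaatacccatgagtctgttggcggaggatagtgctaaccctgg
Cd3e (- strand, chr9:45009562-45009861): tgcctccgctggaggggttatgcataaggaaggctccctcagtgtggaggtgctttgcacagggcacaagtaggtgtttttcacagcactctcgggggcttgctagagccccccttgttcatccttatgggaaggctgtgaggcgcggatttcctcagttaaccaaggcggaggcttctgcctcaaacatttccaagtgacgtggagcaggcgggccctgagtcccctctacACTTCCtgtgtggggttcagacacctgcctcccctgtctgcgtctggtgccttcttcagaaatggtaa
Themis (+ strand, chr10:28668110-28668409): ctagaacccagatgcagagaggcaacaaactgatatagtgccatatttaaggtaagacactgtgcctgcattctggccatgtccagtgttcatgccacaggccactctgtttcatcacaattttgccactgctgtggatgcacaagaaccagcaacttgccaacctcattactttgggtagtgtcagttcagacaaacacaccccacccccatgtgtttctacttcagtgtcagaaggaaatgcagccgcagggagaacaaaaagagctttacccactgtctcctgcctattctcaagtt
The ETS core was found in the windows of Cd3d and Cd3e, 2 of 7 genes, and in 23.8% of 32851 windows of all genes. TGTGGT, a core of RUNX sites, was found in 1 of the 7 (Cxcr6) and in 16.8% of all windows. The E-box letters CANNTG were in 6 of 7 and in 72.3% of all, the GATA factor letters AGATAA in 1 (Cd3g) and 11.2%, the TCF factor letters CTTTGA in 2 (Cd3d and Cxcr6) and 16.0%, and the NFAT letters GGAAAA in 0 of 7 and 23.4%. TATAAA was in 0 of 7 and in 13.6% of all windows. Both strands were searched and motifs were allowed to overlap. Themis has a second annotated start, and neither of its windows held the ETS or the RUNX letters. A match is a match of letters only.

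Values are counts-per-million (CPM) on library sizes scaled by TMM (edgeR's trimmed mean method). Library totals ran from 6.99 M to 34.01 M counts, and mitochondrial genes took 5.73 to 13.27% of them. Pdcd1 was under 10 counts in 49 of 57 libraries and at 0 in 11, where a floor of 3 counts corresponds to 0.0905 to 0.47 CPM. Cd8b1 was under 10 counts in 39 libraries, Cd3d in 23 and Cd8a in 17, and each of the other genes in 1 to 7. Per kilobase of exon, Ccl5 and Themis were the most abundant of the 10 in sham WD livers, at 3.95 ± 1.84 and 1.70 ± 0.715 CPM per kb (SD, n = 8). The other 8 averaged 0.206 to 0.409 CPM per kb there. In sham P21 livers Themis stood at 0.0917 ± 0.0663 CPM per kb (n = 7), below Cd3e at 0.149 ± 0.109.

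**Figure D1:**
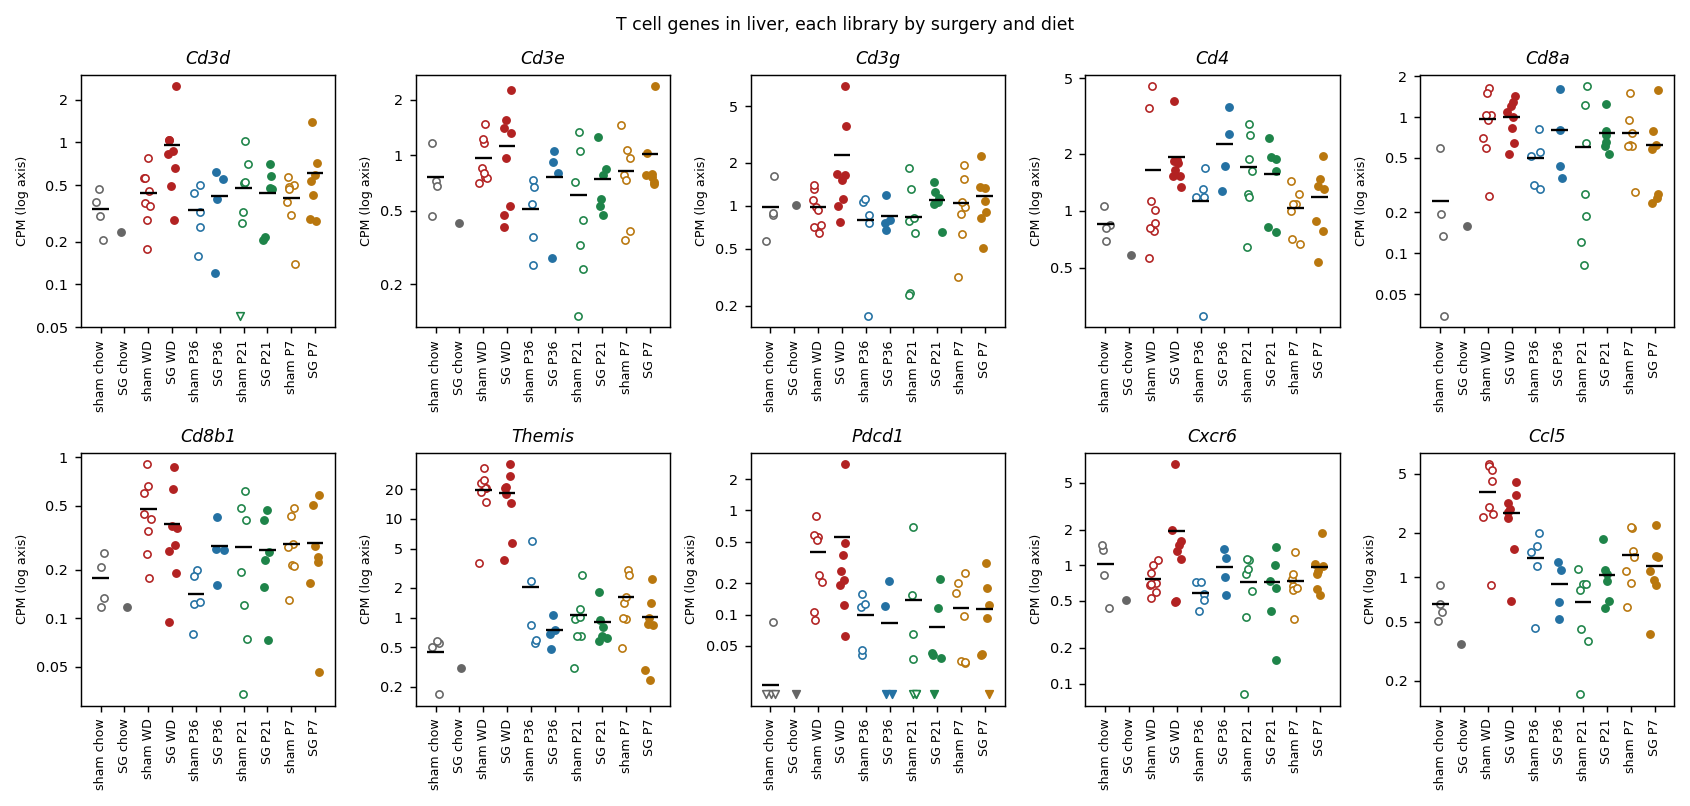
CPM of each of the 10 genes (log axis) in every library by group of diet, with open points for sham mice, filled points for SG mice, bars for group means and triangles for libraries at 0. Themis and Ccl5 stand highest on WD, Themis at up to 35.7 CPM, while the CD3 chains, Cd4 and Cxcr6 overlap across diets, with SG WD library 1 far above for Cd3g and Cxcr6.

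Fold changes are log2 values ± SE from edgeR's quasi-likelihood test, and p-values carry the Benjamini-Hochberg adjustment across the 16087 genes tested. A gene is called, and is said to rise or fall, where the adjusted p is under 0.05. Whether a bulk liver holds fewer T cells, the same T cells with less of an RNA, or less of that RNA in other cells cannot be told apart here.

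Themis had the largest diet response of the 10 genes. In sham WD livers it ran from 3.62 through a median of 20.5 to 32.7 CPM, and in SG WD livers from 3.84 through 19.1 to 35.7 CPM. The 4 sham chow libraries had 0.168, 0.552, 0.51 and 0.584 CPM. The lowest sham WD library was thus above every sham chow library. Sham P36 livers had 2.36, 0.558, 5.97, 0.591 and 0.847 CPM, and SG P36 livers 0.747, 0.479, 1.07 and 0.679 CPM. On P21, Themis ran from 0.307 through 0.968 to 2.69 CPM in sham and from 0.577 through 0.729 to 1.83 CPM in SG livers. On P7 it ran from 0.49 through 1.42 to 3.07 CPM in sham and from 0.232 through 0.866 to 2.46 CPM in SG livers. Apart from 1 sham P36 library at 5.97 CPM, above sham WD library 3 at 3.62 CPM, no library on a diet of 20% fat reached the WD libraries of its own operation.

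Themis was higher on WD than on chow in sham mice, by 5.49 ± 0.72 (adjusted p = 1.4e-07), the 44th highest of 16087 genes. It fell against WD on every diet of 20% fat. In sham mice the log2 change was -3.29 ± 0.55 on P36 (adjusted p = 4.48e-05) and -3.61 ± 0.49 on P7 (adjusted p = 1.04e-07). In SG mice it was -4.66 ± 0.68 on P36 (adjusted p = 3.47e-06) and -4.17 ± 0.51 on P7 (adjusted p = 2.14e-08). P21 gave -4.2 ± 0.51 in sham and -4.26 ± 0.56 in SG mice. These calls held when each library was left out in turn, with a highest adjusted p of 5.38e-04. The 6 comparisons share the WD libraries of their operation, so they are not independent of each other. The operation itself gave no call for Themis on any diet: SG minus sham was -0.11 ± 0.41 on WD, -1.48 ± 0.66 on P36 (adjusted p = 0.28), -0.17 ± 0.57 on P21 and -0.67 ± 0.5 on P7.

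Against chow, the diets of 20% fat left Themis between the chow and WD levels. The change from chow was 2.2 ± 0.7 on P36 (adjusted p = 0.12), 1.29 ± 0.68 on P21 (adjusted p = 0.364) and 1.88 ± 0.67 on P7 (adjusted p = 0.054), and none was called. The P7 value of Themis was called by DESeq2 (adjusted p = 0.0206), and so was that on P36 (adjusted p = 0.044). On P7 it was also called with no scaling beyond the library total (0.0362) and with only the groups compared (0.0228). The same held without 7 libraries that stood apart in earlier work (0.0349), but not with RLE scaling, no filter on low counts or limma-voom. 3 WD libraries had Themis below 6 CPM: sham WD library 3, SG WD library 5 at 5.65 CPM and SG WD library 7. The last pair had summed neutrophil markers of 1590 and 1260 CPM, against 19.3 to 85.2 CPM in the other SG WD libraries, and the part of this in their Themis level was not tested.

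The ratio of Themis to Cd3e differed between WD and the other diets. The log2 ratio of Themis to Cd3e counts, in which scaling between libraries cancels, was 4.18 ± 0.94 in sham WD livers (SD, n = 8) and -0.79 ± 0.49 in sham chow livers (n = 4). It was 1.43 ± 1.15 on P36, 0.88 ± 1.63 on P21 and 0.88 ± 0.67 on P7 in sham mice. In SG mice it was 3.93 ± 1.76 on WD, 0.05 ± 0.63 on P36, 0.24 ± 0.46 on P21 and -0.23 ± 1.16 on P7. Each of these 6 groups differed from WD of the same operation, with differences of -2.75 to -4.16, and WD differed from chow by 4.96. By two-sided exact permutation tests the adjusted p ran from 0.00932 to 0.0242 over these 7 comparisons, adjusted over 42 ratios tested. With only the livers that had 10 counts or more of both genes, 4 of the 7 Themis to Cd3e differences were no longer called by the exact permutation test: P36 in sham (-2.55, adjusted p = 0.0727) and SG mice (-4.11, 0.0571), P21 in sham mice (-3.41, 0.0727) and WD against chow (4.76, 0.0571). That setting leaves fewer livers, which raises the smallest p that the exact test can give. Of the 42 ratios tested with all livers, 11 were called, 7 of them for Themis. Ccl5 to Cd3e was called for WD against chow (1.96, adjusted p = 0.0332 by the exact permutation test), for P21 in sham mice (-1.51, 0.0261) and for P7 in SG mice (-1.1, 0.0332). Pdcd1 to Cd3e was called for WD against chow (3.19, adjusted p = 0.0332 by the same exact test). The calls of WD against chow for these 3 ratios were each lost without sham chow library 1, 2 or 6 (adjusted p up to 0.0727 by the exact permutation test), and that of Ccl5 on P7 in SG mice without any 1 of 8 of the 15 libraries (up to 0.0606). Themis to Cd3e did not overlap between WD and chow livers, so its exact p was the smallest possible with or without a chow liver. Leaving out a chow liver raises that smallest p, so the loss for Themis follows from group size and the adjustment. With 10 counts or more of both genes none of the 3 Ccl5 calls was kept. The ratios of Cd8a to Cd4, Cd8a to Cd3e and Cxcr6 to Cd3e gave no call in any of 21 comparisons, although 3 of them had an unadjusted p under 0.05 by the exact permutation test.

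**Figure D2:**
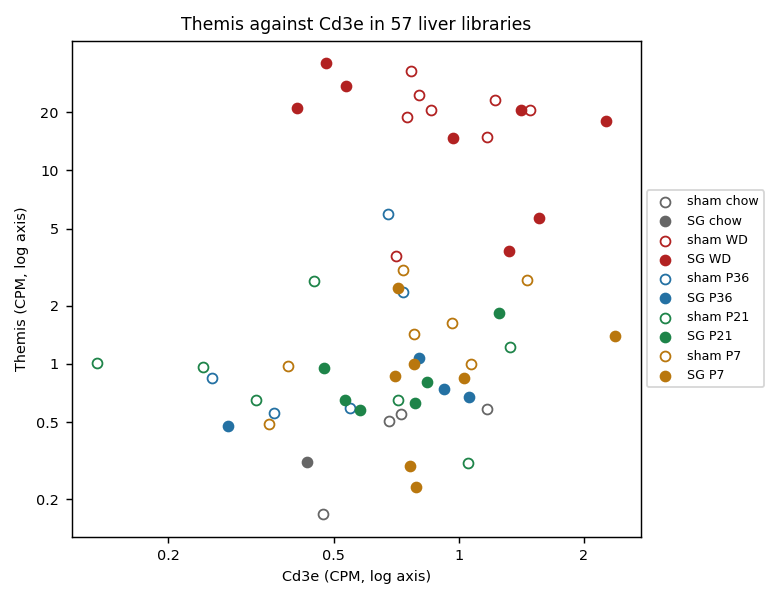
Themis against Cd3e in 57 livers, both in CPM on log axes, with open points for sham and filled points for SG mice and a colour for each diet. The WD livers sit at 3.62 to 35.7 CPM of Themis, with 1 sham P36 liver among them at 5.97 CPM, while in Cd3e (0.135 to 2.37 CPM) the diets overlap.

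Of the CD3 chains, none was called in sham mice, against WD or against chow. Cd3g, the gamma chain, ran from 0.642 through 0.958 to 1.41 CPM in sham WD livers and from 0.571 to 1.63 CPM in the 4 chow livers, and the groups overlapped. WD minus chow was 0.02 ± 0.47 for Cd3g, 0.44 ± 0.51 for Cd3d and 0.39 ± 0.44 for Cd3e, the delta and epsilon chains. In sham mice the change from WD on P21 was -0.24 ± 0.41 for Cd3g, 0.09 ± 0.42 for Cd3d and -0.7 ± 0.39 for Cd3e.

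In SG mice Cd3g was lower than on WD on all 3 diets of 20% fat, with -1.47 ± 0.49 on P36 (adjusted p = 0.0316), -1.05 ± 0.42 on P21 (adjusted p = 0.0493) and -0.97 ± 0.39 on P7 (adjusted p = 0.0469), and Cd3d was lower on P21, with -1.11 ± 0.44 (adjusted p = 0.0493). SG WD library 1, at 6.93 CPM of Cd3g against 0.776 to 3.65 CPM in the other 7, decided these calls. Without it the Cd3g values were -0.94 (adjusted p = 0.141), -0.58 (0.265) and -0.47 (0.337), and the Cd3d value -0.76 (0.183). SG P36 livers had 0.791, 0.679, 0.759 and 1.19 CPM of Cd3g, which overlap the SG WD range. Cd3e was called in none of the 23 comparisons, and its SG WD livers ran from 0.408 through 1.15 to 2.26 CPM.

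Both CD8 genes were higher on WD than on chow. Cd8a, the alpha chain of CD8, had 0.134, 0.0345, 0.595 and 0.195 CPM on chow and ran from 0.265 through 0.998 to 1.64 CPM in sham WD livers. The ranges overlapped through chow library 5 at 0.595 CPM. Cd8a was higher on WD than on chow, by 2.09 ± 0.61 (adjusted p = 0.00685). On P7 it was 1.74 ± 0.62 above chow (adjusted p = 0.052), which DESeq2 (0.0241) and limma-voom (0.0326) called. It was also called with no scaling beyond the library total (0.0406) and without 7 libraries that stood apart in earlier work (0.036).

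Cd8b1, the beta chain of CD8 that marks conventional cytotoxic T cells, had 0.134, 0.207, 0.255 and 0.117 CPM on chow and 0.177 through 0.427 to 0.903 CPM in sham WD livers, which overlap. It was higher on WD than on chow by 1.43 ± 0.54 (adjusted p = 0.0381), a call lost without any 1 of 7 of the 12 libraries, with adjusted p up to 0.11. In sham P36 livers it had 0.122, 0.0797, 0.199, 0.182 and 0.127 CPM, from 2 to 5 counts a library, and it fell against WD, with -1.75 ± 0.52 (adjusted p = 0.0148). Without sham P36 library 2 the adjusted p was 0.0521. In SG mice the P36 change was -0.5 ± 0.52, and the difference between the operations was 1.25 ± 0.73 (adjusted p = 0.569).

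Cd4, the coreceptor of helper T cells that some liver macrophages also carry, was not called in any comparison. It had 0.839, 0.691, 1.06 and 0.817 CPM on chow. Sham WD livers ran from 0.562 through 0.934 to 4.56 CPM, with libraries 3 and 4 at 3.49 and 4.56 CPM. WD minus chow was 0.97 ± 0.45 (adjusted p = 0.0912), and 1.14 with no scaling beyond the library total, where it was called (0.0393). On P36, SG livers had 1.27, 1.72, 2.54 and 3.52 CPM and sham livers 1.3, 0.279, 1.19, 1.68 and 1.19 CPM, a difference of 1.02 ± 0.46 (adjusted p = 0.287).

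Pdcd1 rested on few counts. The 4 chow libraries had 0, 0, 2 and 0 counts, and the 8 sham WD libraries 2 to 19, from 0.0884 through a median of 0.379 to 0.893 CPM. Every sham WD library was above the chow library with 2 counts, at 0.085 CPM. Summed over libraries there were 80 counts on WD and 2 on chow, a ratio of 21.0 after division by library size, with an exact 95% interval of 5.61 to 176, which covers counting error only. Pdcd1 was higher on WD in the fit (adjusted p = 0.00626), and its log2 change of 4.11 ± 1.19 depends on the prior count. In SG mice Pdcd1 fell against WD on P36 (-2.75 ± 0.95, adjusted p = 0.0386), P21 (-2.63 ± 0.82, 0.0129) and P7 (-2.33 ± 0.72, 0.00989). SG WD library 1 had 99 counts, or 2.77 CPM, while the other 7 had 2 to 17. Without that library the values were -1.51 (adjusted p = 0.244), -1.46 (0.153) and -1.13 (0.209). In sham mice the changes were -1.99 ± 0.85 (0.0959), -1.46 ± 0.74 (0.124) and -1.73 ± 0.72 (0.0554).

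Cxcr6 gave no call in sham mice. It had 0.436, 0.829, 1.36 and 1.48 CPM on chow and ran from 0.53 through 0.701 to 1.11 CPM on WD, so that the groups overlapped, and WD minus chow was -0.36 ± 0.47 (adjusted p = 0.584). In sham mice the changes from WD were -0.44 ± 0.46 on P36, -0.11 ± 0.41 on P21 and -0.06 ± 0.4 on P7. In SG WD livers Cxcr6 ran from 0.49 through 1.41 to 7.15 CPM and was higher than in sham WD livers, by 1.36 ± 0.38 (adjusted p = 0.0374), and it fell against SG WD on P21 (-1.32 ± 0.42, 0.0155) and P7 (-1.03 ± 0.39, 0.0347). All 3 calls were lost without SG WD library 1: SG minus sham on WD became 0.66 (adjusted p = 0.341), P21 -0.66 (0.174) and P7 -0.33 (0.48).

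SG WD library 1 was the highest of its group for 7 of the 10 genes and also stood apart in T cell receptor chain genes. It had 5.95 CPM of Trdc, the delta chain constant gene, against 0.0763 to 0.84 CPM in the other 7 SG WD libraries. Trgc1, a gamma chain constant gene, was at 5.2 CPM against 0.0869 to 1.22, and Trgc2, another, at 1.42 against 0.125 to 0.984. The beta chain constant genes Trbc1 (2.21 CPM, others 0.204 to 1.51) and Trbc2 (3.46, others 0.49 to 2.75) were also above the others. So was Cd247 of the same chain list (2.65 CPM, others 0.305 to 1.24). Only Trac, the alpha chain constant gene, was at 2.21 CPM, inside the range of 0.608 to 2.66. Il17a, a cytokine gene of some gamma-delta and helper T cells, had 273 counts there (7.63 CPM). The others had 0 to 6 counts, and outside this group Il17a had 1 count in each of 2 SG P21 libraries. The same library had 0.0838 CPM of Gzmk, within 0 to 0.565 in the others, and its Themis (17.9 CPM) and Ccl5 (2.77 CPM) lay inside the range of the others (3.84 to 35.7 and 0.694 to 4.43). It was also highest in summed markers of bile duct cells (392 CPM, others 60.1 to 164), stellate cells and fibroblasts (849, others 187 to 537), lipid-associated macrophages (580, others 178 to 392) and B cells (29.8, others 6.98 to 19.8). What part these have in its Cxcr6, Cd3g and Pdcd1 values was not tested.

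With all libraries, Trdc was called higher in SG than in sham WD livers, by 3.46 ± 0.79 (adjusted p = 0.00737), and Trgc1 by 2.5 ± 0.55 (adjusted p = 0.00473). Without SG WD library 1 the values were 1.84 ± 0.71 (adjusted p = 0.182) for Trdc and 1.41 ± 0.47 (adjusted p = 0.102) for Trgc1. Sham WD livers had Trdc at 0.0342 to 0.265 CPM. Trac did not pass the test in either fit (0.64 ± 0.35 with the library, adjusted p = 0.45, and 0.48 ± 0.36 without it, 0.585).

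**Figure D3:**
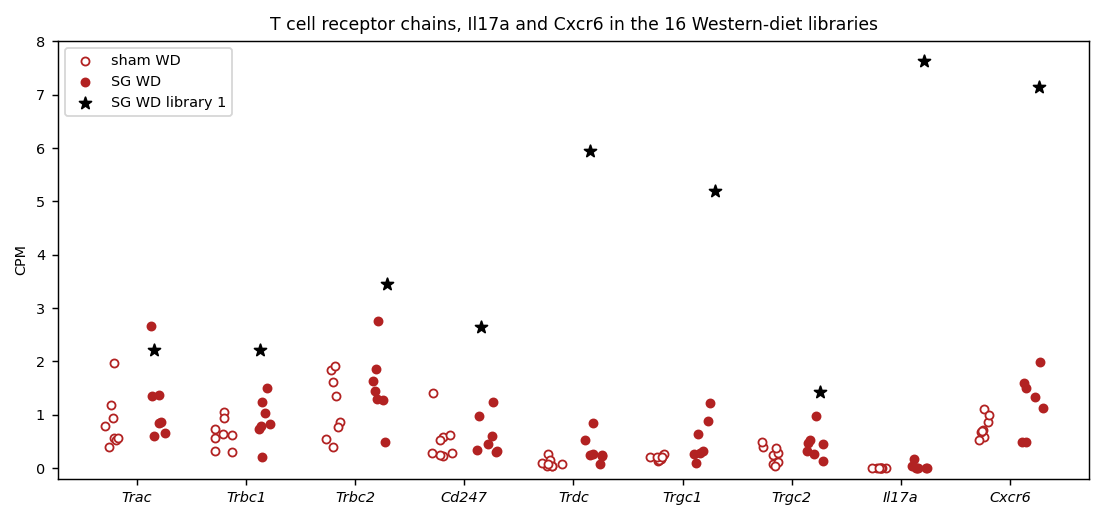
CPM of 7 receptor chain genes, Il17a and Cxcr6 in the 16 WD livers (sham as open points, SG as filled points), with SG WD library 1 drawn as a black star. The star is above all other WD livers for Trdc (5.95 CPM), Trgc1 (5.2 CPM), Il17a (7.63 CPM) and Cxcr6 (7.15 CPM). It is also above them for Trbc1 (2.21 CPM), Trbc2 (3.46 CPM), Cd247 (2.65 CPM) and Trgc2 (1.42 CPM), and below another SG liver for Trac.

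Ccl5, like Themis, was called in all 7 comparisons of WD with another diet. Sham WD livers ran from 0.884 through 3.74 to 5.81 CPM and SG WD livers from 0.694 through 2.83 to 4.43 CPM, while chow livers had 0.503, 0.587, 0.892 and 0.661 CPM. Sham P36 livers had 1.99, 1.2, 1.63, 0.455 and 1.48 CPM, and SG P36 livers 1.27, 0.519, 1.12 and 0.679 CPM. On P21 the range was 0.162 to 1.14 CPM in sham and 0.616 to 1.83 CPM in SG livers, and on P7 it was 0.63 to 2.18 CPM and 0.417 to 2.25 CPM. The WD range overlapped that of every other group, in sham mice through library 3, which had 0.884 CPM against 2.57 CPM or more in the other 7.

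Ccl5 was higher on WD than on chow by 2.56 ± 0.47 (adjusted p = 3.25e-05). In sham mice it fell against WD, with -1.53 ± 0.4 on P36 (adjusted p = 0.00522), -2.51 ± 0.38 on P21 (1.82e-06) and -1.42 ± 0.35 on P7 (0.00116). In SG mice the values were -1.64 ± 0.45 (0.00843), -1.35 ± 0.38 (0.00632) and -1.18 ± 0.35 (0.00727). Leaving out each library in turn kept all 6 calls, with a highest adjusted p of 0.0499 for P36 in SG mice. In sham mice Ccl5 was higher on P7 than on P21, by 1.09 ± 0.38 (adjusted p = 0.0293). This call was lost with no filter on low counts (adjusted p = 0.0557), with limma-voom (0.0842), without 7 libraries that stood apart in earlier work (0.0582) and without any 1 of 5 of the 14 libraries (sham P21 libraries 2, 5 and 6 and sham P7 libraries 3 and 7), with adjusted p up to 0.0853. For Themis the same comparison gave no call (0.59 ± 0.51, adjusted p = 0.416).

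Receptors and ligands of these proteins, and other molecules that T cells respond to, were read beside them. Cxcl16, the ligand of CXCR6, was higher on WD than on chow by 1.33 ± 0.25 (adjusted p = 6.31e-05) and fell on P21, with -1.3 ± 0.21 in sham (5.12e-06) and -0.85 ± 0.21 in SG mice (0.0025), while Cxcr6 itself was not called in sham mice. Ccr1, the gene of a receptor for CCL5, rose on WD against chow (3.06 ± 0.67, adjusted p = 0.000375) and fell on P21 in sham mice (-2.22 ± 0.51, 0.000703). Cd274, which encodes a ligand of PD-1, rose on WD by 0.94 ± 0.31 (adjusted p = 0.0172) and fell on P21 with a change of -0.69 ± 0.26 (0.0345). Cd1d1, whose product presents lipids to natural killer T cells, went the other way: it was lower on WD than on chow (-0.56 ± 0.11, 7.47e-05) and higher on P21 (0.49 ± 0.09, 6.7e-05). Il15ra was lower on WD than on chow (-0.59 ± 0.17, 0.00599), and Il15, a cytokine that keeps memory T cells and NK cells alive, was at 0.17 ± 0.28 (0.686).

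Counted together, 5 of the 10 genes (Themis, Ccl5, Pdcd1, Cd8a and Cd8b1) were higher on WD than on chow and 0 lower, with a median change of 1.2 over the 10, where 17.1% of all genes tested were called higher and their median change was -0.01. Of all 16087 genes, 2336 were lower. With no scaling beyond the library total 6 of the 10 were higher, where 28.1% of all genes were, and the shares of all genes lower on P21 and P7 in sham mice were 22.9% and 21.7%. Against WD in sham mice, 3 genes were lower on P36 (Themis, Ccl5 and Cd8b1), where 10.9% of all genes were lower. Themis and Ccl5, 2 of 10, were lower on P21 and on P7, where 17.8% and 18.4% of all genes were, which for P21 and P7 is about the share of all genes. Against WD in SG mice, 4 genes were lower on P36 (background 10.1%), 6 on P21 (17.1%) and 5 on P7 (19.7%). Without SG WD library 1 each of these 3 counts was 2, and without sham P21 library 7, the highest of its group for 7 genes, the sham P21 count was 5. No gene of the 10 was higher than on WD in any of the 6 comparisons. Of all 16087 genes, 1171, 2313 and 2788 were higher in sham mice on P36, P21 and P7. In SG mice 1078, 1998 and 2279 were. The median over the 10 was -0.97, -0.7 and -0.49 in sham and -1.15, -1.08 and -0.83 in SG mice, for P36, P21 and P7.

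**Figure D4:**
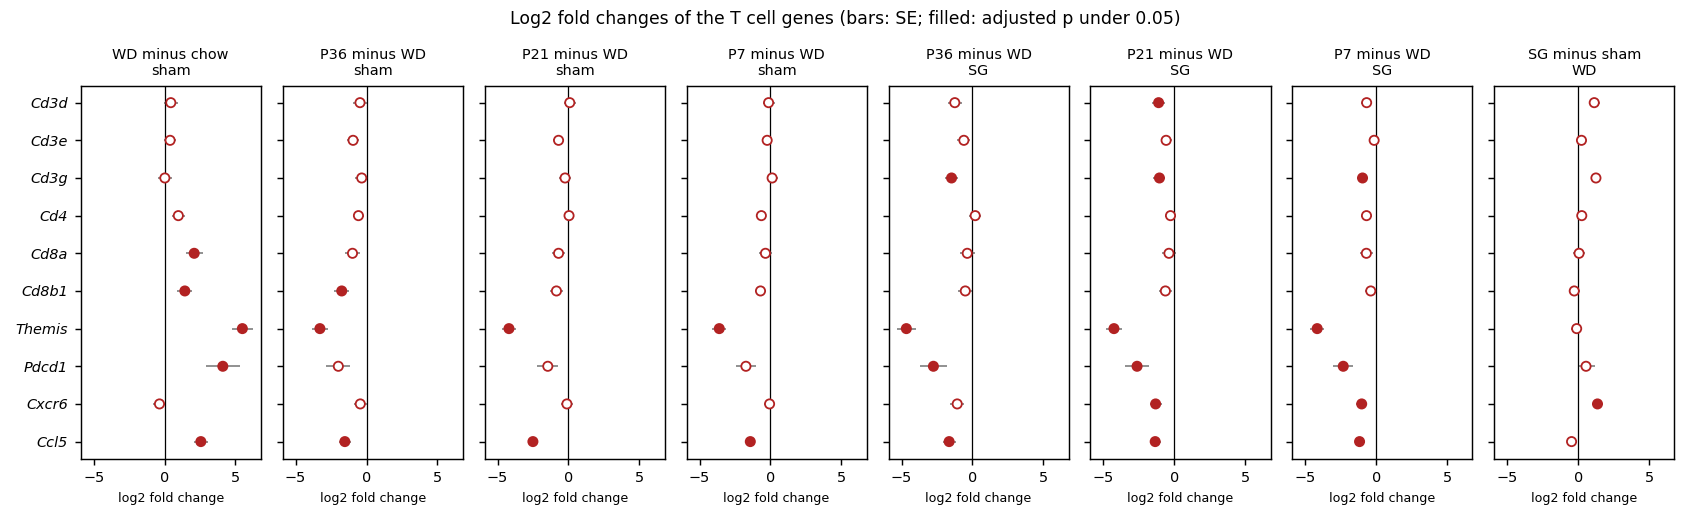
Log2 fold change of each of the 10 genes in 8 comparisons, with bars of 1 SE and filled points for an adjusted p under 0.05 (edgeR's quasi-likelihood test). Themis is at 5.49 for WD against chow and between -3.29 and -4.66 for the other diets against WD, and Cd3e and Cd4 have no filled point.

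Against chow, edgeR called 0 of the 10 genes on P36, P21 or P7, where it called 0.982%, 1.42% and 12.5% of all genes in either direction. The unadjusted p was under 0.05 for 2, 3 and 3 of the 10, DESeq2 called 1, 0 and 2, and limma-voom 0, 0 and 1. For SG against sham, 1 gene (Cxcr6) was called on WD, where 2.34% of all genes were, and 0 on P36, P21 and P7, where 2.22%, 8.52% and 0% were. On those 3 diets 2, 0 and 0 of the 10 had an unadjusted p under 0.05, and DESeq2 and limma-voom called 0. The difference of the diet change between SG and sham mice was called by edgeR for 0 of the 10 on each diet (0.305%, 0.124% and 0% of all genes for P36, P21 and P7). The unadjusted p was under 0.05 for 0, 2 and 0, and DESeq2 and limma-voom called 0.

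Among the protein diets in sham mice, 0 of the 10 genes were called for P7 against P36 (15.7% of all genes were), 1 for P7 against P21 (Ccl5; 26.3%) and 0 for P36 against P21 (0.087%). In SG mice the counts were 0 for P7 against P36 (18.8%), 0 for P7 against P21 (9.7%) and 0 for P36 against P21 (7.69%). By unadjusted p under 0.05 they were 0, 1 and 1 in sham and 1, 0 and 0 in SG mice. DESeq2 and limma-voom called 0 in the 5 comparisons where edgeR called 0.

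Within groups, after the group mean of log2 CPM was taken from each library, the CD3 chains rose and fell together from animal to animal. Over 56 livers Spearman's rho between the 3 pairs of CD3 chains was 0.46 to 0.7. Cd3e and Cd3g had Pearson's r = 0.77 (permutation p = 1e-05, the smallest that 100000 permutations give; adjusted over 45 pairs 9e-05) and rho = 0.7 (permutation p = 1e-05, adjusted 0.00015), and r = 0.73 without the 2 livers farthest from the median of Cd3e. Cd8a and Cxcr6 had r = 0.59 (permutation p = 1e-05, adjusted 9e-05) and rho = 0.64 (permutation p = 1e-05, adjusted 0.00015), and r = 0.53 without 2 livers. Of the 36 pairs that leave out Themis, 29 passed an adjusted permutation p of 0.05 by rho, with a median rho of 0.44. Of the 9 pairs with Themis, 1 did, with a median rho of 0.19. That pair was Themis and Ccl5, with r = 0.37 (permutation p = 0.0148, adjusted 0.0246) and rho = 0.32 (permutation p = 0.0227, adjusted 0.0374), and r = 0.33 without 2 livers. Themis and Cd3e had r = 0.14 (permutation p = 0.341, adjusted 0.404) and rho = 0.19 (permutation p = 0.19, adjusted 0.238). The pairs share the libraries and their depth.

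**Figure D5:**
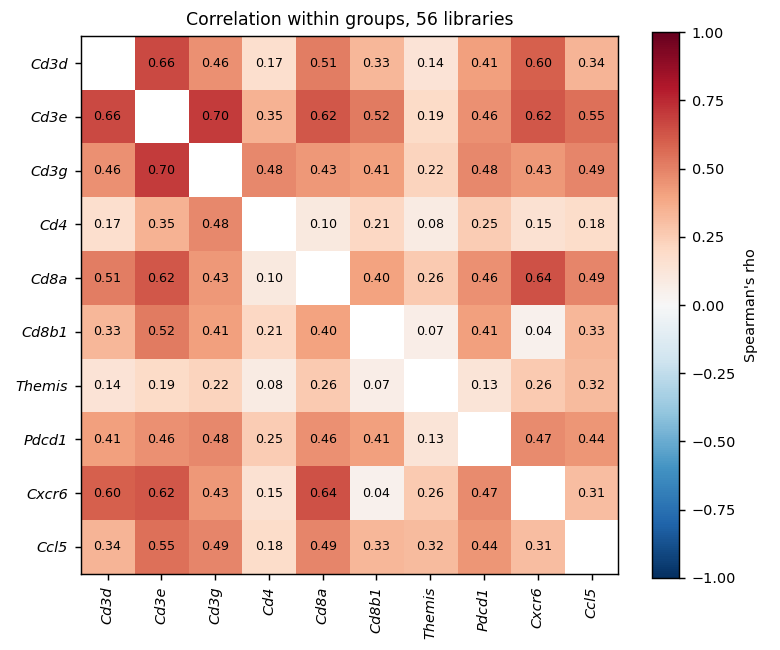
Spearman's rho within groups between the 10 genes over 56 livers, as a heat map with each value printed. The Themis row holds 0.07 to 0.32 and the block of CD3 chains 0.46 to 0.7, while the Cd4 row is at 0.08 to 0.35 apart from Cd3g (0.48).

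The genes most like the 10, by mean rho within groups over 56 livers, included Il2rb (0.52), a chain of the receptors for interleukins 2 and 15, and Lck (0.5), a kinase of T cell receptor signalling. Mir142hg (0.51), the host of a microRNA of blood cells, and Cd52, H2-Ab1, Itgb7 and Akna (0.5 each) were also among them. These values are descriptive. Like Cd3e, Lck was not called for WD against chow (0.21 ± 0.38, adjusted p = 0.713) or for P21 against WD in sham mice (-0.04 ± 0.32, 0.946). Il2rb, Mir142hg and Itgb7 were called in neither as well. In contrast, 3 of these genes were higher on WD and lower on P21. They were Cd52 (1.97 ± 0.36, 3.28e-05, and -1.5 ± 0.28, 6.53e-05), H2-Ab1 (2.48 ± 0.39, 4.21e-06, and -2.13 ± 0.31, 9.94e-07) and Akna (1.22 ± 0.33, 0.00349, and -0.72 ± 0.27, 0.0331). The genes most like Themis alone, a list drawn after its values were seen, were Anxa2 (rho = 0.64), Dhrs7b (0.62), Fabp3 (0.61), Tubb6 and Wwtr1 (0.6), Lyplal1 and Uap1l1 (0.58) and Ermp1 (0.57), as a description over 56 livers. Anxa2, a membrane-binding annexin, was higher on WD than on chow by 3.3 and lower on P21 than on WD in sham mice, with -3.06. Fabp3, a fatty acid binding protein gene, was at 4.61 and -5.9 in the same comparisons, and Uap1l1 at 2.8 and -2.67. Fabp3 had 0 to 6 counts in sham chow and 0 to 2 in sham P21 livers, so the size of its changes depends on the prior count. All 8 genes most like Themis were called in both comparisons, where 17.1% of all genes were higher on WD and 17.8% lower on P21. The list was picked by likeness to Themis in these same libraries, so this count is a description only.

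Other T cell genes were read by lists, as counts among tested members for WD against chow and then for P21 against WD in sham mice. Of 7 tested receptor chain genes besides the members, edgeR called 0 and 0, where 17.1% of all genes were higher on WD and 17.8% lower on P21. The unadjusted p was under 0.05 for 0 and 1, and DESeq2 and limma-voom called 0 and 0. In SG mice 0 were called on P21 (unadjusted 4, DESeq2 1, limma-voom 0), 4 were lower on P36 and 2 on P7. The shares of all genes lower there were 17.1% on P21, 10.1% on P36 and 19.7% on P7. Without SG WD library 1 the counts of lower chains on P21, P36 and P7 were 0, 1 and 0. The median change of the chains was 0.49 on WD against chow and -0.54 on P21 against WD, with medians of -0.01 and 0 over all genes.

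Of 26 genes of T cell receptor signalling, 8 were higher on WD than on chow and 8 lower on P21 than on WD in sham mice, with none the other way, where 17.1% of all genes were higher on WD and 17.8% lower on P21. The other way went 2336 and 2313 of all 16087 genes. Among those with the lowest adjusted p on P21 were Lcp2 (-1.42 ± 0.31, adjusted p = 0.000454), Vav1 (-1.27 ± 0.28, 0.000514) and Sla (-1.26 ± 0.31, 0.00141), which are expressed in other blood cells too. Of 12 inhibitory receptor and exhaustion genes, 8 rose and 7 fell in these comparisons. Havcr2, the gene of TIM-3, which macrophages also carry, was at 2.51 ± 0.35 (adjusted p = 4.33e-07) and -1.65 ± 0.27 (6.62e-06), Nr4a1 and Nr4a2, early response factors, fell with a change of -1.48 ± 0.31 (0.000199) and -1.51 ± 0.3 (0.000129), and Entpd1, an ectonucleotidase gene, with -1.07 ± 0.25 (0.000829). In SG mice 7 of the 26 signalling genes and 4 of the 12 inhibitory genes were lower on P21 than on WD, where 17.1% of all genes were lower. There 1 of the 12 was higher, beside 1998 of all 16087 genes.

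Of 12 cytotoxic effector genes 5 rose on WD against chow and 5 fell on P21 in sham mice, beside 17.1% and 17.8% of all genes. Ccl4, a chemokine gene, fell with a change of -2.51 ± 0.45 (adjusted p = 2.58e-05), Gzmb with -1.94 ± 0.42 (0.000345), Ccl3 with -2.57 ± 0.63 (0.00147) and Gzmk, a granzyme of memory CD8 T cells, with -2.76 ± 0.77 (0.00464). Gzmk had 0 to 3 counts in sham P21 livers, so the size of its change depends on the prior count. In SG mice Ccl4 fell with a change of -1.52 ± 0.44 (0.00745), whereas Gzmb was at -0.2 ± 0.39 (0.729). Of 11 chemokine and receptor genes 8 rose and 3 fell on WD against chow, and 7 fell and 3 rose on P21 in sham mice. The 8 and 7 stand beside the same shares of all genes. Of all 16087 genes, 2336 were lower on WD and 2313 higher on P21. Ccl2 and its receptor gene Ccr2 fell on P21 with a change of -2.7 ± 0.39 (6.3e-07) and -2.07 ± 0.39 (6.62e-05), Cx3cr1 with -2.37 ± 0.37 (3.67e-06), and Cxcl12 rose by 0.85 ± 0.12 (9.13e-07).

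Among all genes 17.1% were higher on WD than on chow and 17.8% lower on P21 than on WD in sham mice, which the counts of the next 3 lists are read against. Counts in the other direction are read against 2336 of 16087 genes lower on WD and 2313 higher on P21. Of 15 T cell transcription factor genes 6 rose on WD against chow, and 5 fell and 1 rose on P21 in sham mice. Runx1 fell with a change of -1.54 ± 0.4 (adjusted p = 0.00275) and Ikzf1 with -0.75 ± 0.28 (0.0349), and Zbtb7b, a factor of helper T cells, rose by 0.41 ± 0.14 (0.0241). This list summed to 266 to 484 CPM in sham WD livers, against 2.18 to 6.06 CPM for the receptor chain list. Which cells the RNA of these factors came from was not tested. Of 10 cytokine and cytokine receptor genes 2 rose, near the share of all genes, and 1 fell on WD, and 4 fell on P21: Il2rg (-1.28 ± 0.28, adjusted p = 0.000431), Il7r (-1.07 ± 0.4, 0.0375), Il21r (-1.01 ± 0.38, 0.0377) and Il10 (-1.63 ± 0.65, 0.0484). Of 7 genes of naive cells and lymph node homing 3 rose on WD and 2 fell on P21, Klf2 (-1.09 ± 0.29, 0.0026) and Ccr7 (-1.2 ± 0.42, 0.0256). Ccl21a (-0.5 ± 0.58, 0.537) and Lef1 (0.34 ± 0.52, 0.652), a factor of naive T cells, gave no call.

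Markers of other liver cells moved in the same comparisons. Summed Kupffer cell and macrophage markers were 471 to 2230 CPM in sham WD, 184 to 273 CPM in chow and 238 to 482 CPM in sham P21 livers. 10 of 12 of these markers were higher on WD than on chow, and 9 of 12 were lower on P21 than on WD, where 17.1% of all genes were higher on WD and 17.8% lower on P21. Summed markers of lipid-associated macrophages ran from 95.6 to 988 CPM in sham WD, from 85.8 to 98 in chow and from 79.8 to 126 in sham P21 livers, with 10 of 10 higher on WD and 9 of 10 lower on P21. Sham WD library 3, the lowest of its group for 8 of the 10 T cell genes and for Themis and Ccl5 among them, was also the lowest for both macrophage lists (471 and 95.6 CPM). SG WD went otherwise: libraries 5 and 7, its lowest for Themis (5.65 and 3.84 CPM), had its highest Kupffer cell and macrophage sums (2690 and 2340 CPM). The median of that group was 1060 CPM. Their sums of lipid-associated macrophage markers, 275 and 392 CPM, lay inside the group's range of 178 to 580 CPM. Of 12 proliferation genes 11 were higher on WD and 12 lower on P21, and of 10 hepatocyte genes 5 were lower on WD and 5 higher on P21, where 2336 and 2313 of all 16087 genes were. NK cell markers summed to 2.17 to 5.72 CPM in sham WD, 2.07 to 4.01 in chow and 1.33 to 5.38 in sham P21 livers, with 1 of 8 higher on WD, near the share of all genes, and 3 lower on P21. Of 10 B cell markers 2 were lower on WD and 1 higher on P21, near the shares of all genes (2336 and 2313 of 16087). The part of these cells in the Themis and Ccl5 values was not tested.

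The single SG chow liver, which entered no test, had 0.313 CPM of Themis, 0.353 of Ccl5, 0.509 of Cxcr6, 1.02 of Cd3g and 0 counts of Pdcd1. Themis there lay inside the range of the 4 sham chow livers, and Ccl5 below it. In the authors' deposited table, which compares SG with sham on P36, P21 and P7, none of the 10 genes had an adjusted p under 0.05. The lowest in the authors' deposited table was that of Cd4 on P36, with a log2 fold change of 1.11 and an adjusted p of 0.243. Which operation a positive value favours is not stated in the authors' deposited table. The authors' deposited table calls 250, 1244 and 1 of 15523 genes on the 3 diets.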

How the data were processed

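Per the labels' protocols, polyadenylated liver RNA was made into stranded libraries and read in pairs of 150 bases. The authors deposited RSEM expected counts per gene, and GRCm39, R 4.4.1, edgeR and limma are named in the submitters' processing notes without a role. The aligner and annotation are not given in the sources used here. Between 2.43% and 4.03% of a library's values are not whole, and a table of the authors' own comparisons, with log2 fold changes, p-values and a score, was read only beside the values computed here. Each count column was tied to a mouse by its name, leaving 0 without one. Each library was treated as 1 animal. The 156 pairs of libraries within groups all differed beyond sampling noise, with a chi-square of 9.34 or more for each degree of freedom.

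Expected counts were rounded and fitted in R 4.3.3 with edgeR 4.0.16: filterByExpr left 16087 genes, TMM scaled 56 libraries, and 9 groups were fitted together by the quasi-likelihood method (47 residual degrees of freedom, biological coefficient of variation 28.2%). The lone SG chow library was left out of the fit. Tests are two-sided with the Benjamini-Hochberg adjustment and a threshold of 0.05. Ratios of counts with 0.5 added were compared by exact permutation tests, and pairs of genes by 100000 permutations (scipy 1.17.1, numpy 2.4.6). Levels per kilobase used exon lengths of GENCODE M21. Alternatives were RLE scaling, no scaling, testing all 30127 genes with a count, DESeq2 1.42.0, limma-voom (limma 3.58.1), only the groups compared, fits without 7 libraries that earlier work found apart, and leaving out each library in turn. Fits of the gene lists without SG WD library 1 were chosen after seeing the data. The fit was tested on simulated counts.

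The 10 genes and the gene lists were chosen with earlier results of these data known. Genes named besides the 10 are the partners list, up to 4 tested genes of each other T cell list with the lowest adjusted p on P21 against WD in sham mice, and the 8 most like the members within groups; a few genes that these rules name are not reported here. Trdc, Trgc1, Trgc2, Trbc1, Trbc2, Cd247, Trac, Il17a, Gzmk in single libraries and the genes most like Themis were added after values were seen.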

Additional observations from a re-analysis of the deposited data

Results flagged for a closer look

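Within groups of 4 to 8 livers, 14 of 90 sets of values held a liver far from the others, with a gap to its nearest neighbour above Dixon's 95% critical value for the range. Chance flags about 1 in 20 such sets where values spread normally, and that rate was not measured for genes of few counts such as Pdcd1. SG WD library 1 was the high liver for 5 genes, with Cxcr6 at 7.15 CPM, Cd3g at 6.93, Cd4 at 3.8, Pdcd1 at 2.77 and Cd3d at 2.49. SG P7 library 3, the highest of its group for 9 of the 10 genes, was the high liver for 4, with Cd3e at 2.37 CPM, Cxcr6 at 1.86, Cd8a at 1.59 and Cd3d at 1.4. For Themis, sham P21 library 5 (2.69 CPM) and SG P21 library 5 (1.83 CPM) lay above the others, in both cases below every WD liver. Pdcd1 was high in sham P21 library 3 (0.701 CPM) and, on 2 counts, in sham chow library 5 (0.085 CPM). Cd8a was high in SG P21 library 7 (1.25 CPM).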

How the results depend on the processing

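Themis kept its direction and its call for WD against chow and for each diet against WD under every alternative run, and Ccl5 under every alternative but 2: P36 in SG mice with only the groups compared (adjusted p = 0.0567) and P7 in SG mice without 7 libraries (-0.72, adjusted p = 0.132). RLE scaling moved no count of called genes by over 1.5 times. The cause of the moves below was not tested. With no scaling the median change of all genes was 0.25 for WD against chow and -0.11 to -0.18 for the diets against WD.

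Genes lower than on WD in SG mice went from 4 to 2 on P36 with limma-voom and to 1 with only the groups compared, on P21 from 6 to 2 and 3, and on P7 from 5 to 3 with either, with no filter and without the 7 libraries. The shares of all genes lower on P36, P21 and P7 were 7.84%, 12.9% and 17.7% with limma-voom. With only the groups compared they were 1.91%, 11.6% and 14.3%. On P7 the share was 11.4% with no filter and 20.8% without the 7 libraries. In sham mice limma-voom called 4 on P21 in place of 2, where 15.4% of all genes were lower. The higher genes on P7 against chow went from 0 to 2 with no scaling, DESeq2, only the groups compared and without the 7 libraries, and to 1 with limma-voom. In that order 10.3%, 8.09%, 7.69%, 7.91% and 5.28% of all genes were higher. On P36 against chow DESeq2 gave 1, where 1.09% of all genes were higher. SG against sham on WD gave 2 with DESeq2 and 0 with no scaling, limma-voom and only the groups compared. In that order 2.02%, 1.61%, 0.305% and 0.0124% of all genes were higher. P7 against P21 in sham mice gave 0 with no filter, limma-voom and without the 7 libraries, where 5.37%, 11.8% and 14.1% of all genes were higher. With at least 10 counts of both genes, 3 ratios were called in place of 11. That setting left fewer livers, 6 or 7 comparisons for each ratio, and none for Pdcd1 to Cd3e. Leaving out 1 library at a time gave 2 to 5, 2 to 6 and 2 to 6 lower genes on P36, P21 and P7 in SG mice, 2 to 5 on P21 in sham mice, 0 to 2 for P7 against chow and for SG against sham on WD, 0 to 1 for P7 against P21 in sham mice, and 8 to 17 ratios. No paired analysis was possible because library numbers only name animals and no label pairs mice across groups.

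Depth limits Pdcd1, Cd8b1 and Cd3d most, which were under 10 counts in 49, 39 and 23 of 57 libraries.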
